A study of Caenorhabditis elegans with 12 samples.

Results

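Young adults of 2 C. elegans strains that carry different temperature-sensitive alleles of fer-1 were compared across genes: hc1, in strain BA1, against hc24, in strain BA24. The comparison used 8 of the 12 arrays of the series, 4 per allele, and 11570 of the 22548 probe sets of the array, namely those that reached a log2 level of 4 in 4 or more of the 8 arrays. The remaining 4 arrays held wild type worms of strain N2, and their levels are given only for orientation. All groups were whole worms, synchronised as L1 larvae and raised at 25 °C, and 1000 adults per sample were collected with a particle sorter that was set to leave out L4 larvae and younger stages. Labelling started from 100 ng of total RNA. Each allele was represented by 1 strain, so an effect of the allele and an effect of the rest of the strain's genome cannot be told apart, and the preparations hybridised had been picked from a larger number for their correlation within the genotype, so that the spread between arrays understates the spread between preparations.

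fer-1 encodes a ferlin, a large membrane-anchored protein with calcium-binding C2 domains, related to human dysferlin. In spermatids it is needed for the fusion of membranous organelles with the plasma membrane, and mutant sperm stay immotile and do not fertilise. A C. elegans hermaphrodite first makes sperm and then switches to oocytes, and the major sperm protein released from stored sperm triggers oocyte maturation and ovulation. The adult surface is a collagen cuticle that the epidermis lays down at each molt, and the intestine is the main site of yolk production, fat storage and metabolism. The comparison asks how far worms with different lesions in the same gene share a transcript profile. In whole worms, fewer cells of a type and less RNA per cell cannot be told apart.

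The probe set for fer-1 itself (chromosome I) gave background values in every array, 1.47 to 1.48 in hc1 and 1.47 to 1.47 in hc24, and its means of 1.48 in hc1 and 1.47 in hc24 were not separated by an exact two-sided permutation test (p = 0.4, where 70 assignments allow 0.0286 at best). It therefore could not serve as a check of the labels. Array medians over all probe sets lay between 4.33 and 4.37. Across probe sets, which share arrays and are no replicates, correlations were 0.997 to 0.999 within hc1, 0.998 to 0.999 within hc24 and 0.993 to 0.995 between the alleles. Markers of males (plep-1, lov-1, pkd-2) and the larval markers cut-1, a cuticlin, and lin-29 stayed under log2 4 in all arrays. Other markers of the L4 and molting larva were above it: mlt-10 (6.82 in hc1, 6.69 in hc24), dpy-7 (6.48 in hc1, 6.15 in hc24) and col-12 (11.47 in hc1, 12.45 in hc24). Oocyte, intestinal and muscle markers were present, as for rme-2, the yolk receptor, with 14.02 in hc1 and 13.89 in hc24, vit-2, a yolk protein, with 15.89 in hc1 and 15.70 in hc24, and unc-54, the major muscle myosin, with 11.59 in hc1 and 12.89 in hc24. The sperm markers gsp-3, gsp-4, spe-9, spe-11 and spe-38 lay at background in every array, so the presence of sperm transcripts was read from the major sperm proteins.

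A single array stood apart. In hc1 replicate 2, 69 tested probe sets lay at least 2-fold above all 3 other hc1 arrays and 18 at least 2-fold below them, against 1 to 5 above and 3 to 19 below in the other 7 arrays, each set against its own group. Of the 69, 29 matched major sperm protein genes, 8 nspd or msd sperm genes and 4 cuticle collagens of the col class. Counts and gene values below are therefore also given without this array, and list counts also as the range over the 8 fits that each left out 1 array. This array approached the hc24 level of sperm transcripts, and the reason was not tested.

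Differences are hc1 minus hc24 on the log2 scale, so that a difference of 1 is 2-fold, and a probe set was called at an adjusted p under 0.05 (limma, Benjamini-Hochberg over the 11570 probe sets). Of these, 3787 (32.7%) were called, 2305 higher in hc1 (19.9%) and 1482 lower (12.8%). Without hc1 replicate 2, 3464 were called (29.9%), 2090 higher (18.1%) and 1374 lower (11.9%), and 3292 were called both ways in the same direction. The split between higher and lower depended on scaling: 60.9% of calls were higher with the deposited values and 48.4% after cyclic loess, which lowers the median difference over all probe sets to 0.02, against 0.07 as deposited. Most differences were small. At least 2-fold, 252 probe sets were higher (2.18%) and 401 lower (3.47%). The arrays of both alleles did not overlap for 4035 probe sets (34.9%).

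**Figure D1:**
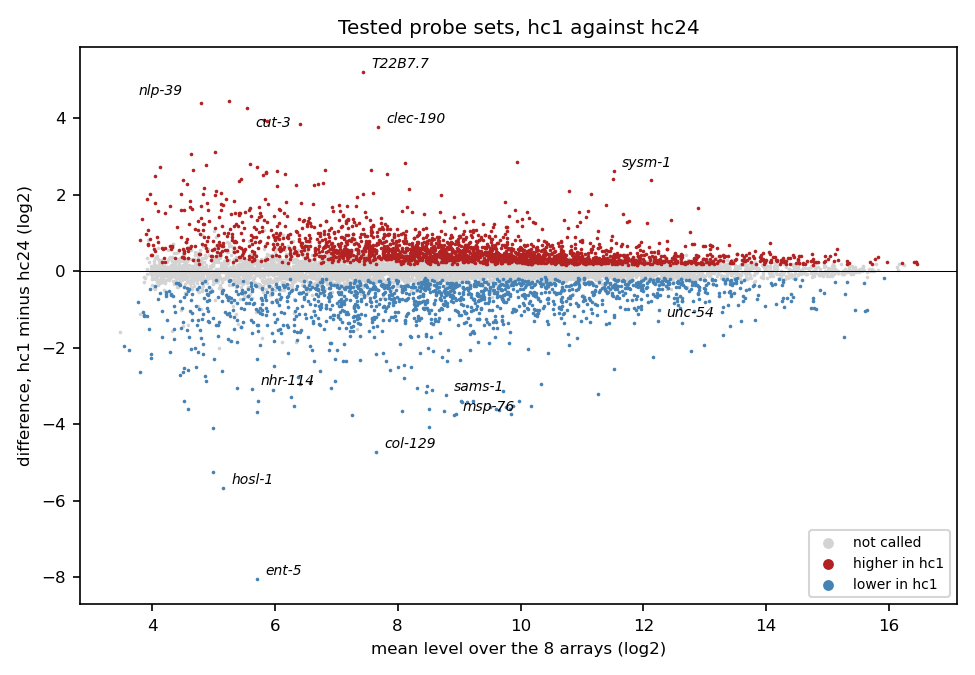
Each point is 1 of the 11570 tested probe sets, with its mean level over the 8 arrays (log2) on the horizontal axis and the difference hc1 minus hc24 (log2) on the vertical axis. Red points were called higher in hc1, blue points lower, and grey points were not called; most called points lie within 1 log2 unit of 0, and ent-5 lies far below the others at -8.05.

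Set beside wild type, called differences had no single arrangement. Among the 252 probe sets at least 2-fold higher in hc1, the wild type mean lay above both alleles for 144, between them for 26 and below both for 82. Among the 401 at least 2-fold lower, wild type lay between the alleles for 258, above both for 63 and below both for 80. Large rises were thus mostly of transcripts more abundant in wild type than in either mutant, and large falls mostly of transcripts with an intermediate wild type level. Over all 2305 probe sets called higher, wild type instead lay below both alleles for 59.3%, between them for 14.3% and above both for 26.4%. Over all 1482 called lower, it lay between the alleles for 44.2%, above both for 38.7% and below both for 17.1%.

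The largest difference was in ent-5, a gene of the equilibrative nucleoside transporter family on chromosome X. Its level was 1.63, 1.84, 1.63 and 1.68 in hc1 worms, against 9.69, 9.55, 9.82 and 9.90 in hc24 worms. All hc1 arrays lay at background and all hc24 arrays were far above it, a fall of at least 53.4-fold in hc1 (difference -8.05 ± 0.089 (SE), adjusted p = 9.1e-11), and wild type averaged 8.59 ± 0.32 (SD, n = 4). hosl-1, which encodes a homologue of hormone-sensitive lipase, an enzyme that releases fatty acids from stored fat, had 2.12, 2.42, 2.21 and 2.53 in hc1 worms, against 7.97, 7.97, 8.34 and 7.70 in hc24 worms. It too was at background in hc1 only (difference -5.68 ± 0.14 (SE), adjusted p = 4.4e-08, at least 15.98-fold), with a wild type mean of 7.71 ± 0.22, and its other probe set differed by -5.26. Both genes passed the filter through their hc24 arrays alone, so they could only come out lower in hc1. In the RefSeq gene order, ent-5 and hosl-1 are separated by C46C11.4, which has no probe set here. The neighbours on either side were not called: slcr-46.1 had probe set means of 6.27 and 7.52 in hc1 and 6.28 and 7.57 in hc24, nhr-45 had 5.93 and 6.81 in hc1 and 6.02 and 7.002 in hc24, and ceh-1 was at background in both. Farther out, tmem-135 was lower in hc1 by 1 of its 3 probe sets (6.65 in hc1 and 7.51 in hc24, adjusted p = 4.9e-05), the other probe sets being uncalled. mfsd-12 was higher (5.75 in hc1 and 5.23 in hc24, adjusted p = 0.031), and pqn-65 was higher in hc1 (11.36 in hc1 and 10.58 in hc24, adjusted p = 0.0004). These neighbours were chosen after the values were seen.

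Only a few transcripts switched between background and clear expression. By the criterion of all arrays under log2 4 in one allele and all at least log2 6 in the other, 5 probe sets were at background in hc1 and 5 at background in hc24. Each passed the filter through 1 allele alone, so it could differ in that direction only. Those at background in hc1 were ent-5, both probe sets of hosl-1, srlf-32 and 1 probe set shared by several genes, and wild type was at least log2 6 in 3 of the 5. srlf-32 had 3.95, 3.84, 3.84 and 3.83 in hc1 worms, against 6.21, 6.18, 6.14 and 6.11 in hc24 worms, and wild type averaged 3.98. The 5 at background in hc24 were all at least log2 6 in wild type and were nlp-39, cut-3, ZK180.5, chtb-1 and F47E1.4. nlp-39, a neuropeptide-like gene, had 6.996, 6.996, 6.98 and 6.98 in hc1 worms, against 2.61, 2.58, 2.62 and 2.58 in hc24 worms, with 9.39, 8.31, 9.30 and 8.88 in wild type. Its hc1 arrays were at least 7.94-fold above those of hc24 (difference 4.39 ± 0.049 (SE), adjusted p = 9.1e-11) and below every wild type array.

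The largest rise with both alleles above background was in T22B7.7, an X-linked gene, with 10.26, 10.04, 10.20 and 9.63 in hc1 worms, against 4.72, 5.18, 4.77 and 4.68 in hc24 worms. The groups were well apart (difference 5.20 ± 0.16 (SE), adjusted p = 1.4e-07, 36.7-fold), and here hc1 also lay above wild type, whose arrays read 4.47, 7.03, 4.32 and 4.32. Close by in the gene order, srv-7 was at background in both alleles, and the adjacent T22B7.3 was lower in hc1 by its expressed probe set, with means of 5.35 in hc1 and 6.38 in hc24 (adjusted p = 0.00012). T22B7.4, 3 genes away, was higher (8.35 in hc1 and 7.37 in hc24, adjusted p = 0.00044). By deposited difference, ZK180.5 (4.44), nlp-39, cut-3, the collagen gene col-165 (3.95), tts-2 (3.93), mtre-1 (3.85) and clec-190, a C-type lectin gene (3.77), came next. The first 5 of these had hc24 means under log2 4, so their folds are bounds and have no order among the 7. Each had a wild type mean above both alleles, from 8.97 in nlp-39 to 11.26 in mtre-1. Further rises, in chtb-1 (3.11), F47E1.4 (3.06), F41F3.3 (2.86), abf-2 (2.84), F15B9.8 (2.81), R02F11.1 (2.77) and abu-14 (2.73), showed the same arrangement. Without hc1 replicate 2 the differences of these 15 genes lay between 2.71 and 5.20, and all kept their call. The values for abu-14 are from the dimmer of its probe sets, and the brighter one differed by 1.25 (adjusted p = 1.1e-05).

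Apart from sperm genes and col-129, the falls with the most negative deposited differences after ent-5 and hosl-1 were in grd-10, a hedgehog-related gene, rips-1 and ifc-1, a cytoplasmic intermediate filament gene. The hc1 means of grd-10 and ifc-1 lay under log2 4, so their folds are bounds and are not ranked: grd-10 was at least 11.8-fold and rips-1 12.2-fold lower. grd-10 had 3.73, 4.05, 3.65 and 4.04 in hc1 worms, against 7.60, 7.62, 7.21 and 7.80 in hc24 worms (difference -3.69 ± 0.14 (SE), adjusted p = 5.0e-07). rips-1 had 6.58, 6.56, 6.74 and 6.95 in hc1 worms, against 10.16, 10.26, 10.38 and 10.48 in hc24 worms (difference -3.61 ± 0.11 (SE), adjusted p = 1.4e-07). ifc-1 had 2.69, 2.69, 2.70 and 3.06 in hc1 worms, against 6.75, 6.37, 6.44 and 5.96 in hc24 worms (difference -3.59 ± 0.16 (SE), adjusted p = 1.2e-06, at least 5.21-fold). ifc-1 passed the filter through its hc24 arrays alone, so it could only come out lower in hc1. In all 3, hc1 matched the wild type level more closely than hc24 did: wild type averaged 4.66 ± 0.59 in grd-10, 6.89 ± 0.21 in rips-1 and 2.92 ± 0.42 in ifc-1. The hc24 arrays stood above the other groups.

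**Figure D2:**
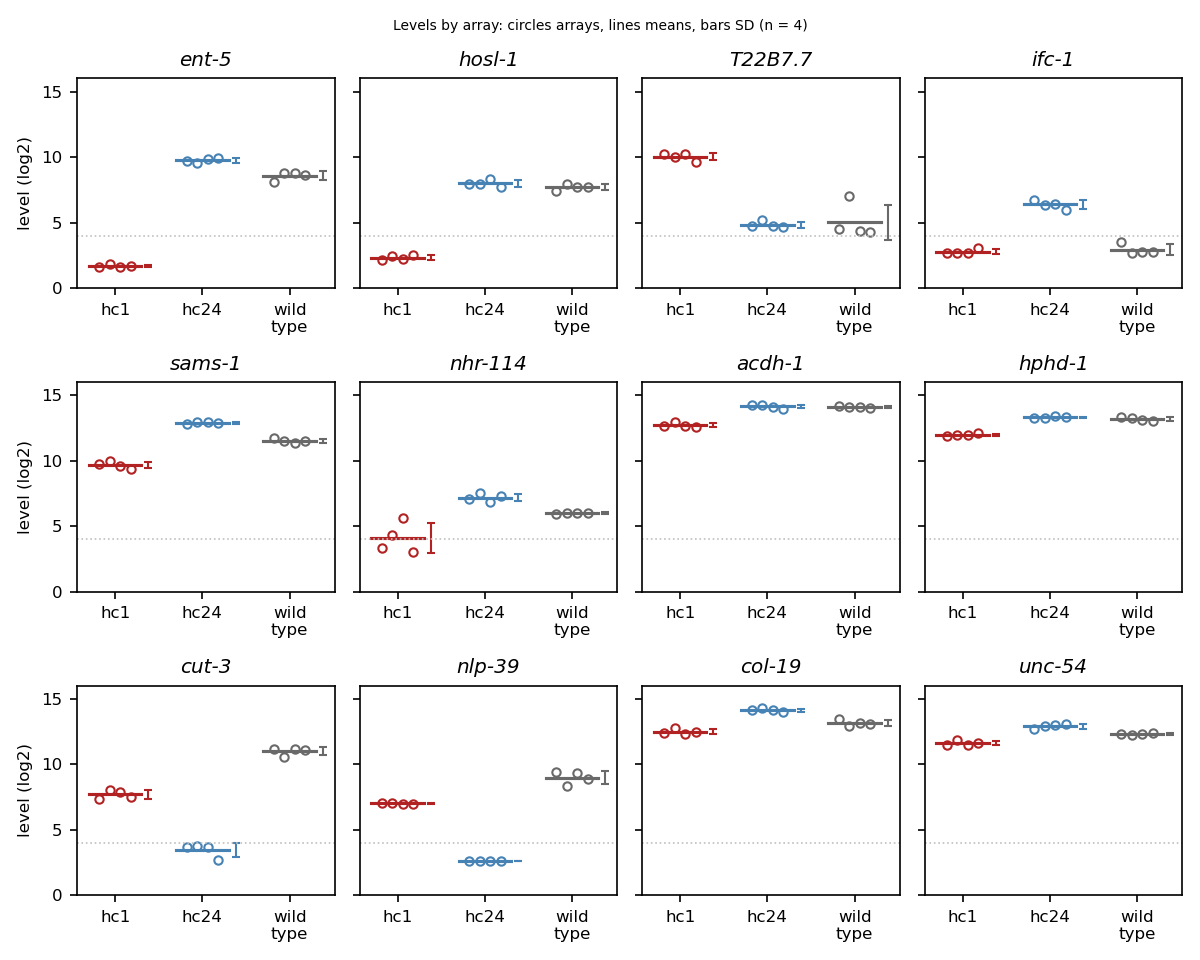
Levels (log2, vertical axis) of 12 genes in hc1, hc24 and wild type arrays; circles are arrays, horizontal lines means, bars SD (n = 4), and the dotted line is log2 4. ent-5 and hosl-1 are at background in hc1 alone, T22B7.7 is high in hc1 alone, ifc-1 is high in hc24 alone, and cut-3 and nlp-39 are lowest in hc24 and highest in wild type.

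Transcripts of the major sperm proteins were lower in hc1. The major sperm proteins are small proteins, made only in sperm, that form the filaments of sperm motility. All 27 tested entries were lower in hc1 (0 higher; 27 lower also without hc1 replicate 2, and 22 to 27 with single arrays left out), with a median difference of -3.41, and of -4.42 without that array. With no filter on low values, where the adjustment ran over 22548 probe sets, 3 of the 27 were called. Over all genes, with 1 probe set per gene, 20.1% were higher and 13.9% lower with a median of 0.07 (18.4% and 12.9% without hc1 replicate 2). All list counts below are to be read beside these shares. The mean level of the 27 was 5.21, 9.20, 5.16 and 6.03 in hc1 replicates 1, 2, 5 and 6, against 9.73, 9.52, 9.49 and 9.72 in hc24, and 5.55 to 6.77 in wild type. The other hc1 arrays thus lay within or below the wild type range, while replicate 2 came close to the hc24 arrays, and 21 of the 27 did not overlap between alleles. Because these genes are near-identical copies, single probe sets can read several of them.

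Individual genes had the same shape. msp-76 had 5.61, 10.30, 5.49 and 6.73 in hc1 worms, against 11.28, 10.77, 10.63 and 10.54 in hc24 worms (difference -3.77, adjusted p = 0.014; -4.86, adjusted p = 1.7e-05 without hc1 replicate 2). msp-36 had 5.82, 10.44, 5.91 and 6.13 in hc1 worms, against 10.998, 10.63, 10.71 and 10.95 in hc24 worms (difference -3.74, adjusted p = 0.014; -4.87, adjusted p = 2.2e-07 without the array). The second hc1 value was the high one each time, just under the lowest hc24 array. The other msp genes selected by size were msp-38, msp-77, msp-19, msp-55, msp-78, msp-65 and msp-31, with differences of -3.77 to -3.42, or -4.91 to -4.47 without hc1 replicate 2. In msp-74, the member with the smallest adjusted p, the values were 2.80, 4.20, 2.85 and 2.85 in hc1 worms, against 5.50, 6.15, 5.59 and 6.04 in hc24 worms (difference -2.65, adjusted p = 0.00026). msp-49 (-2.87) and msp-50 (-3.05) completed the named members. In msp-74, msp-49 and msp-50, hc1 replicate 2 was the only hc1 array at log2 4 or above, so passing the filter depended on the hc24 arrays. For such members the filter favoured a lower level in hc1, and their number among the 27 was not counted. msp-64 and msp-40 overlapped between alleles through hc1 replicate 2 and differed by -3.28 and -2.80.

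The other tested sperm genes were 1 of 20 higher and 3 lower (1 and 9 without hc1 replicate 2; 1 and 0 to 9 with single arrays left out; median difference -0.26). The number lower was 0 without hc1 replicate 1 and 1 without hc1 replicate 5 or hc24 replicate 1, 2 or 3, so the list's count depends on single arrays, and 2 members were called in the same direction with and without hc1 replicate 2. Of the list, nspd-2, a gene of a family of small nematode-specific sperm proteins, had 3.35, 7.26, 3.30 and 3.51 in hc1 worms, against 6.96, 5.18, 6.26 and 6.34 in hc24 worms and was not called (difference -1.83, adjusted p = 0.13), whereas without the array it was (-2.80, adjusted p = 0.0006). nspd-4 (-1.40, adjusted p = 0.06; -1.98, adjusted p = 0.00015 without the array), nspd-1 (-1.04, adjusted p = 0.092; -1.42, adjusted p = 0.012) and msd-4, a gene with a major sperm protein domain (-1.58, adjusted p = 0.083; -2.32, adjusted p = 9.7e-05), changed status in the same way. fog-1, a translational regulator that sets the sperm fate of germ cells, was slightly higher in hc1 (difference 0.37, adjusted p = 0.016), and swm-1, a protease inhibitor that holds back sperm activation in males, slightly lower (-0.25, adjusted p = 0.03).

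The collagen gene col-129 behaved like the sperm transcripts. Its level was 3.93, 8.49, 4.41 and 4.26 in hc1 worms, against 9.81, 10.22, 10.06 and 9.97 in hc24 worms (difference -4.74, adjusted p = 0.0034; -5.81, adjusted p = 1.8e-07 without hc1 replicate 2), and wild type averaged 5.20 ± 0.56. The second hc1 array was again between the other hc1 arrays and hc24. Its neighbours in the gene order, M18.3 (9.90 in hc1 and 9.74 in hc24) and ddb-1 (10.60 in hc1 and 10.64 in hc24), were not called, and dlc-2 was lower (6.82 in hc1 and 7.76 in hc24, adjusted p = 0.00022).

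**Figure D3:**
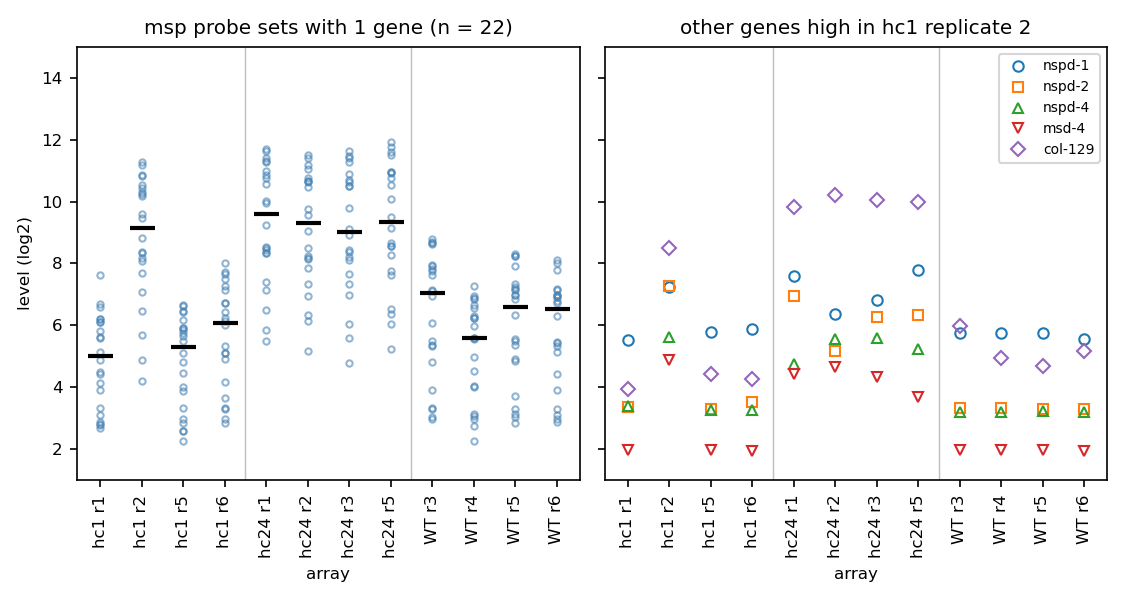
Levels (log2) in each of the 12 arrays, hc1 left, then hc24 and wild type (WT). The left panel shows the 22 tested msp probe sets with 1 gene and their median as a bar, the right panel nspd-1, nspd-2, nspd-4, msd-4 and col-129; hc1 replicate 2 lies near the hc24 arrays, and the other hc1 arrays near wild type.

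Germline transcripts outside sperm differed little. Oocyte and eggshell genes were 12 of 38 higher and 0 lower (11 and 0 without hc1 replicate 2; 5 to 11 and 0 with single arrays left out; median difference 0.14), and after cyclic loess 3 higher and 0 lower. The share higher was 31.6%, beside 20.1% of all genes. The number higher was 5 without hc1 replicate 1 or hc24 replicate 3, 6 without hc1 replicate 5, and 7 without hc1 replicate 6 or hc24 replicate 2 or 5. cav-1, the caveolin of germ cells, had 14.28 ± 0.052 in hc1 and 13.83 ± 0.079 in hc24 (SD over 4 arrays each; difference 0.45, adjusted p = 0.00064). puf-5, an RNA-binding regulator of oocyte formation, was 0.26 higher (adjusted p = 0.017). dct-13 showed the largest of the named differences, with 9.63, 9.17, 9.74 and 9.63 in hc1 worms, against 8.58, 8.57, 8.88 and 8.25 in hc24 worms (difference 0.98, adjusted p = 0.0014) and a wild type mean of 2.70, near background. rme-2 was not called (difference 0.13, adjusted p = 0.19).

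Mitosis and replication genes were 28 of 104 higher and 0 lower (26 and 0 without hc1 replicate 2; 20 to 26 and 0 with single arrays left out; median difference 0.16), and after cyclic loess 17 higher and 0 lower. The share higher was 26.9%, beside 20.1% of all genes. The rises were small, as in cdc-25.3 (0.43, adjusted p = 0.00097) and cdc-25.2 (0.29, adjusted p = 0.0032), phosphatases that activate cyclin-dependent kinases, and pri-1, a primase subunit (0.36, adjusted p = 0.0026). Meiosis genes were 6 of 36 higher and 0 lower (6 and 0 without hc1 replicate 2; 3 to 7 and 0 with single arrays left out; median difference 0.13), after cyclic loess 2 higher and 1 lower, a share higher no larger than the 20.1% of all genes. Without hc1 replicate 1, 3 meiosis genes were higher. him-8, which pairs the X chromosomes in meiosis, differed by 0.34, adjusted p = 0.0039, coh-3, a cohesin gene, by 0.32, and brd-1, a partner of the BRCA1 homologue, by 0.24. Germ granule and small RNA genes were 4 of 29 higher and 1 lower (5 and 1 without hc1 replicate 2; 3 to 6 and 1 with single arrays left out; median difference 0.06). Both shares, 13.8% higher and 3.45% lower, were below the 20.1% and 13.9% of all genes. glh-1, a Vasa-type helicase of P granules, was lower in hc1, with 12.37 ± 0.087 in hc1 and 12.78 ± 0.032 in hc24 (SD over 4 arrays each; difference -0.41, adjusted p = 0.001). Higher members were meg-2 (0.52), meg-3 (0.35) and meg-4 (0.43), granule genes of the embryonic germ plasm, which all lie on X, where 3 of 4 tested members were higher, against 0 of 24 on the autosomes. Of all X-linked probe sets 35.8% were higher, against 17.5% of autosomal ones.

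Histone genes were 15 of 50 higher and 4 lower (12 and 4 without hc1 replicate 2; 9 to 14 and 3 to 4 with single arrays left out; median difference 0.10), and after cyclic loess 8 higher and 5 lower. Without hc24 replicate 1 or 2, 9 histone genes were higher. hil-7, a linker histone gene, had 12.42 ± 0.11 in hc1 and 11.10 ± 0.19 in hc24 (SD over 4 arrays each; difference 1.32, adjusted p = 2.4e-05), and wild type averaged 14.50. his-71, which encodes the replacement histone H3.3, was 0.68 higher and hil-2, a linker histone gene, 0.44 higher. his-35 (-0.28) and his-37 (-0.18) were slightly lower. Many histone genes are copies of one sequence, so their probe sets are not specific to 1 gene. Genes of the gonadal sheath and spermatheca were 1 of 26 higher and 3 lower (1 and 2 without hc1 replicate 2; 1 to 2 and 2 to 4 with single arrays left out; median difference 0.01). In that list lag-2, the Notch ligand of the distal tip cell, was higher (0.89, adjusted p = 0.0013). The lower members included the myosin genes unc-54 (-1.30) and myo-3 (-0.86), which are also markers of body wall muscle. Egg laying and vulva genes were 3 of 17 higher and 2 lower (3 and 1 without hc1 replicate 2; 2 to 3 and 1 to 2 with single arrays left out; median difference 0.11), among them egl-26 (0.58, adjusted p = 0.00048), lin-12, a Notch receptor (0.25), sqv-3 (0.29) and the beta-catenin gene bar-1 (-0.50). Their shares, 17.6% higher and 11.8% lower, were near the 20.1% and 13.9% of all genes.

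Transcripts known from the first embryonic divisions, when the zygotic genome turns on, were mostly higher in hc1. Several of them were far lower in wild type than in either mutant: tbx-38, an early T-box gene, had means of 9.35 in hc1 and 8.66 in hc24 and 4.43 in wild type. The early zygotic list was 20 of 32 higher and 1 lower (17 and 0 without hc1 replicate 2; 12 to 18 and 0 to 1 with single arrays left out; median difference 0.37), and after cyclic loess 13 higher and 1 lower. The number higher was 12 without hc1 replicate 1 and 13 without hc1 replicate 5 or hc24 replicate 1. vet-2, a very early transcript, had 12.07, 11.90, 12.08 and 11.98 in hc1 worms, against 11.24, 11.35, 11.35 and 11.28 in hc24 worms (difference 0.70 ± 0.063 (SE), adjusted p = 5.7e-05), and vet-6 differed by 0.77, adjusted p = 6.0e-05. The hc1 arrays were all above the hc24 arrays in both. tbx-38 was higher in hc1 (0.69, adjusted p = 0.00033), whereas pes-10, another early transcript, was not called (0.35, adjusted p = 0.074). Other embryo markers did not share the low wild type level. end-1 was not called (0.06, adjusted p = 0.59), and elt-7 was higher in hc1 (0.37, adjusted p = 0.029). Both had their highest mean in wild type, 5.21 for end-1 and 8.15 for elt-7. end-3, med-1 and hlh-1 stayed under log2 4 in all arrays of both alleles. hch-1, the protease with which embryos hatch, was higher in hc1 (1.41, adjusted p = 7.2e-05) but highest in wild type (11.32).

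The sdz genes, named as zygotic transcripts that depend on the embryonic fate regulator SKN-1, were 13 of 18 higher and 2 lower (13 and 2 without hc1 replicate 2; 13 to 14 and 2 with single arrays left out; median difference 0.77). sdz-38 had 5.52, 5.15, 5.49 and 5.10 in hc1 worms, against 3.53, 3.74, 3.80 and 3.82 in hc24 worms (difference 1.59 ± 0.12 (SE), adjusted p = 1.8e-05). It passed the filter through its hc1 arrays alone, so it could only come out higher. sdz-18 (0.94, adjusted p = 0.00019) and sdz-9 (0.91, adjusted p = 0.00012) were also higher, and the groups did not overlap. sdz-24 went the other way, with 8.75, 8.60, 8.25 and 8.56 in hc1 worms, against 10.22, 10.65, 10.48 and 10.36 in hc24 worms (difference -1.89 ± 0.12 (SE), adjusted p = 1.1e-05), and sdz-27 was lower by less (-0.32). Homeobox genes, which encode transcription factors of embryonic patterning, were 16 of 28 higher and 1 lower (16 and 1 without hc1 replicate 2; 13 to 16 and 0 to 1 with single arrays left out; median difference 0.36). Among those higher were ceh-40 (0.80, adjusted p = 4.2e-05), ceh-32 (0.91, adjusted p = 0.0012) and ceh-43 (0.66, adjusted p = 0.00097), each with a wild type mean below both alleles.

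F-box genes, a large family whose products choose proteins for ubiquitin-mediated breakdown, were 59 of 116 higher and 4 lower (57 and 4 without hc1 replicate 2; 52 to 60 and 3 to 5 with single arrays left out; median difference 0.35). The rises came mostly from 1 class: 41 of 49 fbxb genes were higher and 0 lower (40 and 0 without hc1 replicate 2), with a median difference of 0.79. Of the fbxc genes, 11 of 20 were higher and 0 lower (median 0.39), and of the fbxa genes 7 of 47 were higher and 4 lower (median 0.005, close to no difference). fbxb-47 had 6.35, 5.92, 6.02 and 6.11 in hc1 worms, against 4.11, 3.96, 3.96 and 3.95 in hc24 worms (difference 2.10 ± 0.095 (SE), adjusted p = 1.2e-06), and fbxb-49 had 4.99, 4.87, 4.99 and 5.06 in hc1 worms, against 2.93, 3.14, 2.94 and 2.88 in hc24 worms (difference 2.01 ± 0.074 (SE), adjusted p = 4.9e-07). hc1 lay above hc24 throughout, and the hc24 means were under log2 4, so the folds are at least 4.28-fold for fbxb-47 and at least 1.97-fold for fbxb-49. fbxb-49 passed the filter through its hc1 arrays alone, and a gene that enters in this way can only come out higher. How many of the 41 fbxb genes did so was not counted. fbxb-17, at a higher level, differed by 1.15, adjusted p = 1.1e-05. Against this run, fbxa-72 fell in hc1, with 4.90, 3.90, 5.17 and 5.74 in hc1 worms, against 7.74, 8.24, 7.92 and 7.62 in hc24 worms (difference -2.95, adjusted p = 0.00021). fbxa-13 (-0.77) and fbxa-156 (-0.31) were lower by less.

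Nuclear hormone receptors, ligand-regulated transcription factors, were 15 of 83 higher and 6 lower (14 and 7 without hc1 replicate 2; 12 to 14 and 4 to 7 with single arrays left out; median difference 0.05), with a share higher near that of all genes. nhr-2, an early embryonic receptor gene, was higher (0.71, adjusted p = 3.2e-05). So were sex-1, an X-linked gene that takes part in the count of X chromosomes (0.48, adjusted p = 0.00071), and nhr-40 (0.65, adjusted p = 0.001). nhr-31 was lower (-0.78, adjusted p = 0.00012), as were nhr-68 and nhr-114, which are taken up with the methionine genes. Few genes of the male list passed the filter, 2 of 4 higher and 1 lower (2 and 1 without hc1 replicate 2; 2 and 1 with single arrays left out; median difference 0.52). xol-1, the master switch of male fate, had 5.64, 5.55, 5.85 and 5.62 in hc1 worms, against 4.13, 4.27, 3.30 and 4.10 in hc24 worms (difference 1.71, adjusted p = 0.0002), egl-46, a zinc finger gene of neuron fate, was 1.10 higher, and col-34, a male tail collagen, -1.17, adjusted p = 0.00076. Chemoreceptor genes were 1 of 9 higher and 2 lower (2 and 2 without hc1 replicate 2; 1 to 2 and 2 with single arrays left out; median difference -0.24), and srh-217 was higher (0.75), and sri-40 (-2.04) and srh-237 (-2.13) were lower. srh-237 passed the filter through its hc24 arrays alone, so it could only come out lower in hc1.

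**Figure D4:**
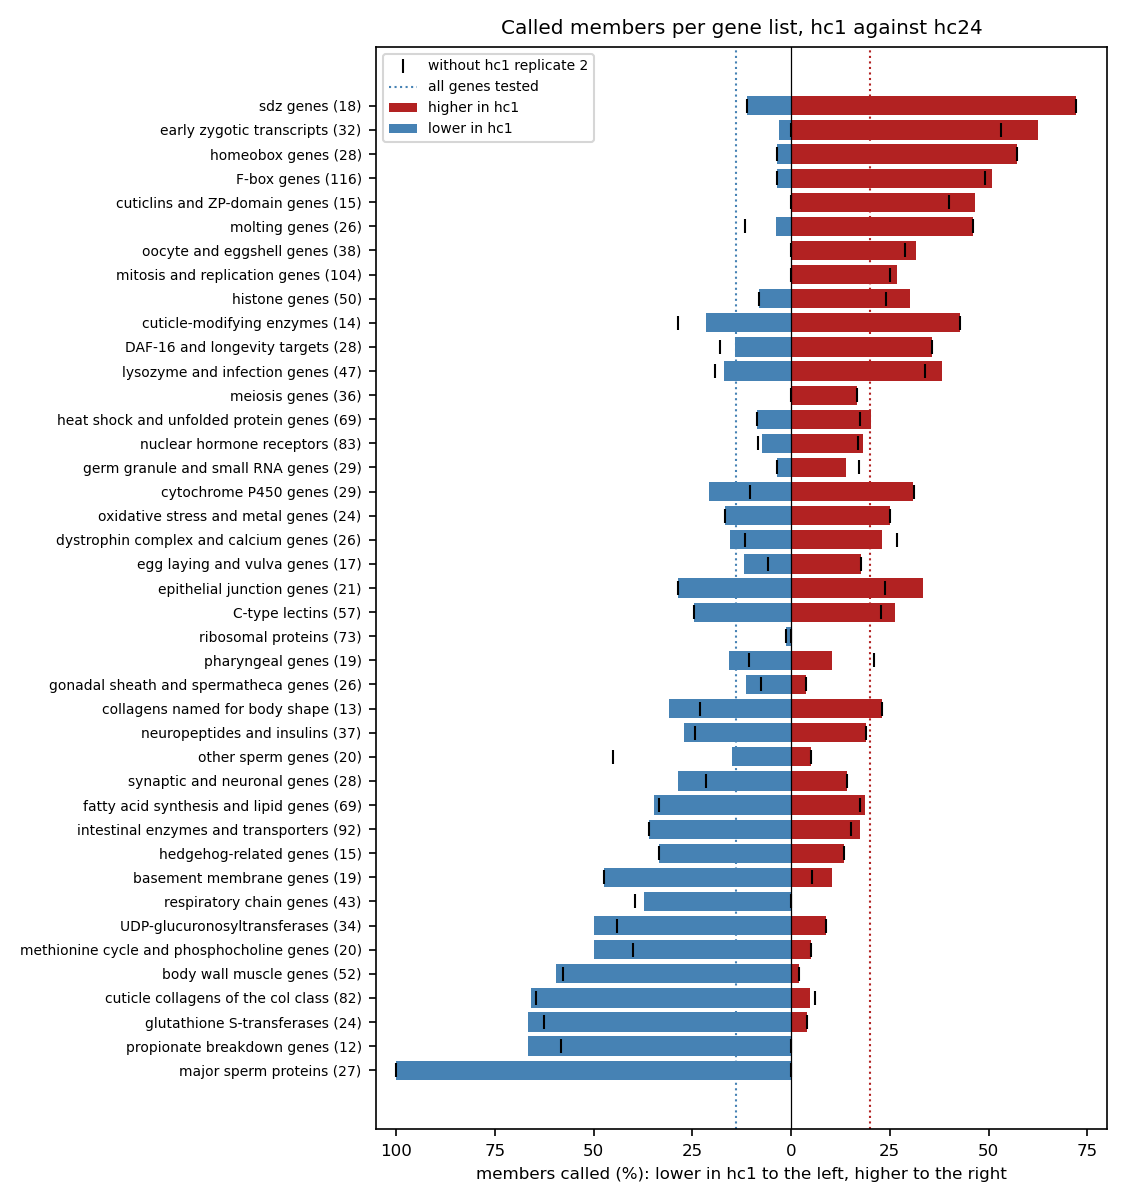
Percentage of tested members called higher (red, right) or lower (blue, left) in hc1 for the 41 gene lists with at least 12 tested members, whose number stands in brackets. Black ticks give the shares without hc1 replicate 2 and dotted lines the shares over all genes tested, 20.1% higher and 13.9% lower; sdz genes head the list and major sperm proteins close it.

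Collagens of the cuticle were mostly lower in hc1. Those of the col class were 4 of 82 higher and 54 lower (5 and 53 without hc1 replicate 2; 4 to 5 and 50 to 54 with single arrays left out; median difference -0.59). col-103 had 11.62, 11.90, 11.65 and 11.76 in hc1 worms, against 13.66, 13.87, 13.84 and 13.92 in hc24 worms (difference -2.09 ± 0.085 (SE), adjusted p = 6.6e-07). col-98 differed by -2.24, adjusted p = 8.7e-07 and col-142 by -1.61, adjusted p = 7.1e-06. In all 3 the hc24 arrays lay above hc1, and the wild type mean was nearer to hc1 (12.28 in col-103, 11.59 in col-98, 8.65 in col-142). col-19, a collagen of the adult cuticle, had 12.40, 12.74, 12.28 and 12.44 in hc1 worms, against 14.13, 14.25, 14.14 and 13.97 in hc24 worms (difference -1.66, adjusted p = 8.1e-06). The few that were higher in hc1 were of another kind, with wild type far above both: col-165 had 7.56, 7.89, 8.11 and 7.60 in hc1 worms, against 3.23, 4.42, 4.45 and 3.28 in hc24 worms and a wild type mean of 11.08, and col-74 (2.60, adjusted p = 0.00011) and col-48 (1.60, adjusted p = 0.00011) followed it.

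Collagens named for their effect on body shape went both ways, 3 of 13 higher and 4 lower (3 and 3 without hc1 replicate 2; 2 to 3 and 2 to 4 with single arrays left out; median difference -0.20). dpy-14 (1.36, adjusted p = 4.2e-05) and dpy-17 (1.27, adjusted p = 0.00028) were higher, and dpy-13 (-0.78, adjusted p = 0.00043) and dpy-4 (-0.82, adjusted p = 0.0029) were lower. dpy-18, which encodes the hydroxylating subunit of the collagen prolyl hydroxylase, was 0.29 higher. The brighter probe set of sqt-3 was lower, with means of 15.43 in hc1 and 15.75 in hc24 (-0.32), whereas its other probe set was higher, with 11.72 in hc1 and 10.19 in hc24 (1.53, adjusted p = 0.0001), so no direction is given for it. Enzymes that modify cuticle proteins were 6 of 14 higher and 3 lower (6 and 4 without hc1 replicate 2; 5 to 6 and 3 to 4 with single arrays left out; median difference 0.05). fkb-7, a prolyl isomerase gene, was 1.45, adjusted p = 7.5e-05, fkb-5 was 0.55 and pdi-2, a subunit of the prolyl hydroxylase, 0.32. skpo-3, a peroxidase gene, was lower (-1.499, adjusted p = 1.9e-05), and so was fkb-3 (-0.51).

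Cuticlins, structural proteins with a zona pellucida domain, were 7 of 15 higher and 0 lower (6 and 0 without hc1 replicate 2; 6 to 8 and 0 with single arrays left out; median difference 0.48). cut-3, a cuticlin of larval cuticles, had 7.33, 8.05, 7.87 and 7.48 in hc1 worms, against 3.67, 3.71, 3.66 and 2.64 in hc24 worms and 11.19, 10.52, 11.16 and 11.10 in wild type. hc24 was lowest, hc1 intermediate and wild type highest, with no overlap between any of the groups (difference 4.26 ± 0.26 (SE), adjusted p = 6.4e-06, at least 12.9-fold). cut-2 (1.49, adjusted p = 8.2e-05) and noah-2 (1.13, adjusted p = 0.00053) had the same order, with wild type means of 12.93 and 11.73. Molting genes were 12 of 26 higher and 1 lower (12 and 3 without hc1 replicate 2; 10 to 12 and 1 to 3 with single arrays left out; median difference 0.26). mlt-8 was higher (1.56, adjusted p = 0.00047), as was pan-1 (0.92, adjusted p = 9.9e-05), and mlt-7, a peroxidase that cross-links cuticle collagens, was lower (-1.18, adjusted p = 0.00031). Of the markers of the L4 and molting larva, cut-1 and lin-29 were under log2 4 in all arrays. mlt-10 (0.13, adjusted p = 0.33) and the collagen gene dpy-7 (0.33, adjusted p = 0.13) were not called between the alleles, and the collagen gene col-12 was lower in hc1 (-0.98, adjusted p = 0.0037). dpy-7 had means of 6.48 in hc1 and 6.15 in hc24, and 10.52 in wild type.

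Hedgehog-related genes, secreted proteins of the nematode epidermis, were 2 of 15 higher and 5 lower (2 and 5 without hc1 replicate 2; 2 to 3 and 5 with single arrays left out; median difference -0.04). Beside grd-10, grd-3 (-1.35, adjusted p = 3.3e-06) and grd-5 (-1.32, adjusted p = 1.1e-05) were lower, while wrt-1, with 6.11, 6.05, 5.58 and 6.30 in hc1 worms, against 4.33, 3.93, 4.33 and 4.40 in hc24 worms, was higher (1.76, adjusted p = 5.8e-05), as was wrt-10 (1.08, adjusted p = 0.0001). Both wrt genes were highest in wild type (10.27 and 10.51). Patched-related genes were 1 of 9 higher and 2 lower (1 and 2 without hc1 replicate 2; 0 to 1 and 2 with single arrays left out; median difference -0.06), with ptr-8 (-1.30) and ptr-24 (-0.49) lower. Astacin proteases, enzymes that cut extracellular proteins, were 3 of 7 higher and 2 lower (3 and 3 without hc1 replicate 2; 2 to 3 and 2 to 3 with single arrays left out; median difference -0.02), with nas-20 (1.23, adjusted p = 5.6e-05) and nas-11 (0.39) higher and dpy-31, a procollagen protease (-0.46), and toh-1 (-0.49) lower. Epithelial junction genes went both ways, 7 of 21 higher and 6 lower (5 and 6 without hc1 replicate 2; 5 to 6 and 6 with single arrays left out; median difference 0.12). dlg-1, a scaffold of the apical junction (1.05, adjusted p = 7.3e-05), sma-1, a spectrin of the apical membrane (0.64, adjusted p = 0.0012), and spc-1, the alpha spectrin (0.39), were higher. mup-4, which anchors the epidermis to the cuticle (-1.08, adjusted p = 6.2e-05), and ifb-2, an intermediate filament of the intestine (-1.004, adjusted p = 3.7e-05), were lower. The list also counts let-767 as lower (-0.56, adjusted p = 7.2e-05), although that gene encodes a metabolic enzyme and not a junction protein.

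Body wall muscle transcripts were mostly lower in hc1. Body wall muscle genes, which encode the sarcomere and its attachments, were 1 of 52 higher and 31 lower (1 and 30 without hc1 replicate 2; 0 to 1 and 29 to 31 with single arrays left out; median difference -0.49). unc-54, myosin heavy chain B, had 11.46, 11.81, 11.47 and 11.62 in hc1 worms, against 12.64, 12.89, 12.97 and 13.07 in hc24 worms (difference -1.30 ± 0.11 (SE), adjusted p = 4.2e-05). mup-2, troponin T, had 11.11, 11.13, 11.22 and 11.20 in hc1 worms, against 12.38, 12.48, 12.57 and 12.68 in hc24 worms (difference -1.36 ± 0.074 (SE), adjusted p = 3.1e-06). In both all hc1 arrays lay below all hc24 arrays, and wild type averaged 12.31 and 12.47. dim-1 was lower by -1.16 on the log2 scale (adjusted p = 2.5e-06) and myo-3, myosin heavy chain A, by -0.86. unc-45, the chaperone of myosin folding, was the 1 higher member (0.27, adjusted p = 0.023). Other markers of body wall muscle were lower as well: unc-15, paramyosin, had 12.95 in hc1 and 13.82 in hc24 (difference -0.88, adjusted p = 0.00017), and tni-1, a troponin I, had 8.26 in hc1 and 8.70 in hc24 (-0.44, adjusted p = 0.0045).

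Basement membrane genes were 2 of 19 higher and 9 lower (1 and 9 without hc1 replicate 2; 1 to 2 and 9 with single arrays left out; median difference -0.37). him-4, a hemicentin that fastens tissues to each other, had 5.77, 5.18, 5.69 and 5.72 in hc1 worms, against 7.49, 7.75, 7.37 and 7.55 in hc24 worms (difference -1.95 ± 0.14 (SE), adjusted p = 1.6e-05). fbl-1, a fibulin, had 3.92 ± 0.29 in hc1 and 5.67 ± 0.20 in hc24 (SD over 4 arrays each; difference -1.75, adjusted p = 5.1e-05), with the hc1 mean at background. unc-52, the perlecan beneath body wall muscle, was lower by 2 of its probe sets, -1.50 and -0.78, and higher by a dim one, 0.38, which overlapped between alleles. sdn-1, syndecan, was higher (0.58, adjusted p = 0.0084). The dystrophin complex and calcium genes were 6 of 26 higher and 4 lower (7 and 3 without hc1 replicate 2; 5 to 7 and 2 to 4 with single arrays left out; median difference 0.05), with no clear direction. csq-1, calsequestrin (-0.64, adjusted p = 0.0013), ncx-1 (-0.77, adjusted p = 0.00012) and sgca-1, a sarcoglycan (-0.47), were lower, and ncx-3 (0.83, adjusted p = 0.0012) and nex-3, an annexin (0.61, adjusted p = 0.0014), were higher. Probe sets of sca-1, the calcium pump of the sarcoplasmic reticulum, were called in opposite directions, -0.59 and 0.28. Pharyngeal genes were 2 of 19 higher and 3 lower (4 and 2 without hc1 replicate 2; 2 to 4 and 2 to 4 with single arrays left out; median difference 0.04). mlc-1, a myosin light chain that body wall muscle shares, was lower (-1.11, adjusted p = 1.6e-05), as was phat-4 (-1.17). abu-14 (1.25 by its brighter probe set) and pqn-13 (0.89) were higher.

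Neuropeptide and insulin genes went both ways, 7 of 37 higher and 10 lower (7 and 9 without hc1 replicate 2; 6 to 7 and 9 to 11 with single arrays left out; median difference -0.22). flp-6, a FMRFamide-related peptide gene, had 9.06, 9.12, 9.11 and 9.11 in hc1 worms, against 6.59, 6.53, 6.27 and 6.85 in hc24 worms (difference 2.54 ± 0.11 (SE), adjusted p = 8.7e-07). nlp-29, an antimicrobial peptide of the epidermis grouped with neuropeptides by name, was also higher (0.88, adjusted p = 3.9e-05). nlp-20 was lower, with 5.02, 4.52, 4.78 and 4.85 in hc1 worms, against 6.24, 6.31, 7.21 and 7.16 in hc24 worms (-1.94, adjusted p = 0.00031), as were nlp-17 (-1.07, adjusted p = 0.00018) and nlp-33 (-0.79, adjusted p = 0.0003). Synaptic and neuronal genes were 4 of 28 higher and 8 lower (4 and 6 without hc1 replicate 2; 3 to 4 and 6 to 8 with single arrays left out; median difference -0.04). Lower members of that list were pgal-1, an amidating enzyme (-1.26, adjusted p = 9.2e-05), egl-3, a proprotein convertase (-0.80, adjusted p = 0.00019), and egl-21, a carboxypeptidase (-0.59, adjusted p = 0.00059). unc-64, syntaxin, was higher (0.71, adjusted p = 0.00062), and unc-119 was higher by 0.37.

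Genes of the methionine cycle and of phosphocholine synthesis, which use S-adenosylmethionine as the methyl donor, were more often lower than higher in hc1. The list was 1 of 20 higher and 10 lower (1 and 8 without hc1 replicate 2; 0 to 1 and 6 to 9 with single arrays left out; median difference -0.23). The number lower was 6 without hc1 replicate 1 or hc24 replicate 1. sams-1, the S-adenosylmethionine synthetase of the intestine, had 9.76, 9.94, 9.57 and 9.34 in hc1 worms, against 12.79, 12.91, 12.91 and 12.87 in hc24 worms. All hc1 arrays lay below all hc24 arrays (difference -3.22 ± 0.12 (SE), adjusted p = 4.9e-07, 9.30-fold; -3.31 without hc1 replicate 2), all 3 of its probe sets were called, and wild type averaged 11.53 ± 0.15. pmt-2, a methyltransferase of phosphocholine synthesis, had 13.11, 13.30, 13.04 and 13.20 in hc1 worms, against 14.42, 14.48, 14.40 and 14.52 in hc24 worms (difference -1.29 ± 0.071 (SE), adjusted p = 3.3e-06). cth-2, a cystathionine gamma-lyase, was lower by less (-0.79, adjusted p = 7.7e-05), and ckb-2, a choline kinase, was higher (0.30, adjusted p = 0.025). msra-1, methionine sulfoxide reductase, a member of the oxidative stress list, was lower too (-1.12, adjusted p = 1.6e-05). Outside the list, folt-2, a folate transporter gene, had 10.08, 10.19, 10.35 and 10.36 in hc1 worms, against 12.87, 12.70, 12.76 and 12.92 in hc24 worms (difference -2.57 ± 0.084 (SE), adjusted p = 2.2e-07), and T13F3.6 had 6.91, 7.54, 6.83 and 6.61 in hc1 worms, against 9.78, 10.27, 9.61 and 10.26 in hc24 worms (-3.01, adjusted p = 1.8e-05). folt-2 and T13F3.6 were named after their values were seen. In the gene order of chromosome V, folt-2 lies 3 genes from ifc-1, which was also lower in hc1. Between them, F37B4.10 was higher in hc1 (8.95 in hc1 and 8.52 in hc24, adjusted p = 0.021), and str-39 was at background in both alleles.

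nhr-114 and nhr-68 encode nuclear hormone receptors that are known regulators of methionine cycle and propionate breakdown genes. nhr-114 had 3.35, 4.34, 5.63 and 3.03 in hc1 worms, against 7.10, 7.49, 6.83 and 7.27 in hc24 worms (difference -3.09, adjusted p = 0.0015). The hc1 arrays spread widely, from 3.03 to 5.63, yet all lay below hc24, and wild type averaged 5.997 ± 0.042. nhr-68 had 8.77 ± 0.17 in hc1 and 9.76 ± 0.18 in hc24 (SD over 4 arrays each; difference -0.99, adjusted p = 0.00018). The list of propionate breakdown genes, put together after the values had been seen, was 0 of 12 higher and 8 lower (0 and 7 without hc1 replicate 2; 0 and 6 to 8 with single arrays left out; median difference -0.35). acdh-1, the acyl-CoA dehydrogenase that opens the vitamin B12-independent route, had 12.63, 12.92, 12.67 and 12.57 in hc1 worms, against 14.22, 14.24, 14.09 and 13.97 in hc24 worms (difference -1.43 ± 0.093 (SE), adjusted p = 1.1e-05). hphd-1, a later enzyme of that route, had 11.86, 11.93, 11.94 and 12.07 in hc1 worms, against 13.28, 13.26, 13.37 and 13.31 in hc24 worms (difference -1.36 ± 0.063 (SE), adjusted p = 1.3e-06). hc24 and wild type lay close together in both, with wild type means of 14.10 and 13.17, and hc1 lay below them. ech-6, an enoyl-CoA hydratase of the route, was lower as well (-0.94, adjusted p = 8.0e-05).

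Detoxification enzymes of the conjugating families were more often lower than higher. Glutathione S-transferases were 1 of 24 higher and 16 lower (1 and 15 without hc1 replicate 2; 0 to 2 and 15 to 16 with single arrays left out; median difference -0.63). gst-4, a widely used reporter of the oxidative stress factor SKN-1, had 5.88, 6.25, 6.09 and 5.70 in hc1 worms, against 8.23, 8.01, 7.87 and 8.08 in hc24 worms (difference -2.07 ± 0.13 (SE), adjusted p = 6.8e-06). gst-28 (-1.66, adjusted p = 1.4e-05) and gst-26 (-1.17, adjusted p = 3.9e-06) were lower too, each without overlap. UDP-glucuronosyltransferases were 3 of 34 higher and 17 lower (3 and 15 without hc1 replicate 2; 2 to 4 and 15 to 17 with single arrays left out; median difference -0.30). ugt-13 had 4.62, 4.85, 4.62 and 4.89 in hc1 worms, against 7.07, 7.24, 7.02 and 7.59 in hc24 worms (difference -2.48 ± 0.13 (SE), adjusted p = 2.6e-06), ugt-47 differed by -1.59, adjusted p = 1.7e-06 and ugt-60 by -1.59, adjusted p = 1.3e-05. ugt-18 (0.80, adjusted p = 0.00073), ugt-64 (0.29) and ugt-21 (0.28) were higher. Cytochrome P450 genes, the oxidising enzymes of the same response, went both ways, 9 of 29 higher and 6 lower (9 and 3 without hc1 replicate 2; 7 to 9 and 3 to 6 with single arrays left out; median difference 0.08). The number lower was 3 without hc1 replicate 1 or hc24 replicate 2, as without hc1 replicate 2. cyp-34A9 had 8.07, 8.24, 8.12 and 8.15 in hc1 worms, against 5.50, 5.49, 5.50 and 5.50 in hc24 worms, and wild type averaged 6.39. It was 6.28-fold higher in hc1 (difference 2.65 ± 0.056 (SE), adjusted p = 1.7e-08). cyp-13A5 (1.43, adjusted p = 0.00042) and cyp-37B1 (1.05, adjusted p = 0.00019) were higher, and cyp-35A3 (-0.98, adjusted p = 1.1e-05), cyp-34A8 (-0.56, adjusted p = 0.0013) and cyp-33C9 (-0.21) were lower.

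Fatty acid and lipid genes were 13 of 69 higher and 24 lower (12 and 23 without hc1 replicate 2; 10 to 12 and 21 to 23 with single arrays left out; median difference -0.06). acdh-9, an acyl-CoA dehydrogenase, had 8.87 ± 0.077 in hc1 and 10.76 ± 0.13 in hc24 (SD over 4 arrays each; difference -1.89, adjusted p = 8.2e-07). fat-5, a desaturase that acts on palmitic acid, had 10.72, 10.79, 10.81 and 10.99 in hc1 worms, against 9.40, 9.34, 9.57 and 9.43 in hc24 worms (difference 1.39 ± 0.079 (SE), adjusted p = 4.1e-06), and lipl-1, a lysosomal lipase, was higher by 1.55, adjusted p = 1.1e-05. far-6, a fatty acid and retinol binding protein, was higher by 0.66, adjusted p = 0.0002. Intestinal enzymes and transporters were 16 of 92 higher and 33 lower (14 and 33 without hc1 replicate 2; 11 to 15 and 32 to 34 with single arrays left out; median difference -0.14). aqp-7, an aquaporin that passes glycerol, differed by -1.75, adjusted p = 9.5e-06, and the cathepsin B-like proteases cpr-8 and cpr-5 by -1.34, adjusted p = 1.1e-05 and -1.33, adjusted p = 1.5e-05. pgp-4, a P-glycoprotein transporter (1.30, adjusted p = 0.00038), asp-4, an aspartyl protease (0.46, adjusted p = 0.0004), and acs-22, an acyl-CoA synthetase (0.43, adjusted p = 0.00046), were higher. Yolk genes with their receptor and regulators were 3 of 9 higher and 1 lower (0 and 2 without hc1 replicate 2; 0 to 2 and 1 to 2 with single arrays left out; median difference 0.18), and the differences were small: vit-1 was lower by -0.29 on the log2 scale (adjusted p = 0.012), and vit-5 was higher by 0.24.

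Respiratory chain genes were 0 of 43 higher and 16 lower (0 and 17 without hc1 replicate 2; 0 and 11 to 17 with single arrays left out; median difference -0.16), and the fall was larger in count after cyclic loess, with 0 higher and 23 lower. ucr-2.2, of complex III, had 10.12, 10.18, 10.16 and 10.16 in hc1 worms, against 10.90, 10.98, 11.21 and 11.25 in hc24 worms (difference -0.93 ± 0.085 (SE), adjusted p = 6.1e-05). asg-2, of ATP synthase, differed by -0.64, adjusted p = 0.00016 and gas-1, of complex I, by -0.52, adjusted p = 0.00033. All 3 lie on X, where 5 of 6 tested members were lower, against 11 of 37 on the autosomes. Of all X-linked probe sets 17.0% were lower, against 11.9% on the autosomes. At log2 10 to 12 the shares lower were 31.4% on X and 6.78% on the autosomes. Ribosomal proteins, by contrast, were nearly all uncalled, 0 of 73 higher and 1 lower (0 and 1 without hc1 replicate 2; 0 and 1 to 2 with single arrays left out; median difference -0.01). The exception was rpl-11.2, also on X, with 12.90 ± 0.16 in hc1 and 13.56 ± 0.015 in hc24 (SD over 4 arrays each; difference -0.66, adjusted p = 0.00038).

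Infection response genes, with lysozymes and antimicrobial peptides, were 18 of 47 higher and 8 lower (16 and 9 without hc1 replicate 2; 14 to 23 and 8 to 10 with single arrays left out; median difference 0.19). abf-2, an antimicrobial peptide, had 9.37, 9.53, 9.31 and 9.93 in hc1 worms, against 6.88, 6.59, 6.69 and 6.64 in hc24 worms (difference 2.84 ± 0.13 (SE), adjusted p = 1.5e-06), and cnc-7, a caenacin, was higher by 0.96, adjusted p = 4.7e-05. irg-8 (-1.10, adjusted p = 5.6e-05), fipr-21 (-1.05, adjusted p = 3.6e-05) and irg-7 (-0.57, adjusted p = 0.0011) were lower. sysm-1, a secreted peptide gene regulated by the PMK-1 immune pathway and named after its values were seen, had 12.74, 12.69, 12.85 and 13.03 in hc1 worms, against 10.27, 10.18, 10.14 and 10.24 in hc24 worms (difference 2.62 ± 0.083 (SE), adjusted p = 1.7e-07) and 10.85 in wild type, so that hc1 lay above both other groups. spig-20, also named after its values were seen, fell in hc1, with 6.61, 7.26, 6.47 and 6.81 in hc1 worms, against 9.71, 9.72, 9.91 and 10.06 in hc24 worms (-3.06, adjusted p = 3.0e-06). C-type lectins, carbohydrate-binding proteins often induced by microbes, were 15 of 57 higher and 14 lower (13 and 14 without hc1 replicate 2; 11 to 15 and 12 to 14 with single arrays left out; median difference -0.0017). clec-190 had 9.64, 9.62, 9.38 and 9.61 in hc1 worms, against 6.07, 5.85, 5.28 and 5.96 in hc24 worms (difference 3.77 ± 0.16 (SE), adjusted p = 8.4e-07), while clec-53 (-1.87, adjusted p = 1.6e-05), clec-83 (-1.23, adjusted p = 2.3e-05) and clec-160 (-1.28, adjusted p = 0.0001) were lower and clec-145 (1.002, adjusted p = 0.00038) and clec-222 (0.73, adjusted p = 9.5e-05) higher.

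Heat shock and unfolded protein genes were 14 of 69 higher and 6 lower (12 and 6 without hc1 replicate 2; 11 to 15 and 5 to 7 with single arrays left out; median difference 0.10), near the share higher of all genes. By chromosome, 7 of 9 X-linked members were higher and 7 of 57 autosomal ones, beside 35.8% of all X-linked and 17.5% of all autosomal probe sets. crt-1, calreticulin, differed by 0.40, adjusted p = 0.0028, atf-6, a sensor of unfolded protein in the endoplasmic reticulum, by 0.47, adjusted p = 0.0034 and hsp-43 by 0.31, adjusted p = 0.0046. hsp-25 (-0.66, adjusted p = 0.00032), hsp-12.2 (-0.60, adjusted p = 0.00077) and dnj-21 (-0.35, adjusted p = 0.0051) were lower. Targets of the insulin-regulated factor DAF-16 and other longevity genes were 10 of 28 higher and 4 lower (10 and 5 without hc1 replicate 2; 7 to 10 and 4 to 5 with single arrays left out; median difference 0.15). dod-3 had 9.22, 9.38, 9.24 and 9.21 in hc1 worms, against 7.23, 6.997, 7.23 and 6.995 in hc24 worms (difference 2.15 ± 0.08 (SE), adjusted p = 4.9e-07), and tts-1, a long noncoding RNA, had 12.40, 13.59, 12.45 and 12.38 in hc1 worms, against 9.97, 10.30, 10.38 and 10.58 in hc24 worms (2.40, adjusted p = 0.00019). dod-24 moved the other way, with 6.69, 6.65, 6.60 and 6.37 in hc1 worms, against 9.46, 9.30, 8.94 and 8.998 in hc24 worms (-2.60 ± 0.13 (SE), adjusted p = 1.7e-06), and sod-3, a mitochondrial superoxide dismutase, was lower (-1.18, adjusted p = 0.00033), as was gpd-2, a glycolytic dehydrogenase (-0.50, adjusted p = 0.00052).

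Oxidative stress and metal genes were 6 of 24 higher and 4 lower (6 and 4 without hc1 replicate 2; 5 to 6 and 2 to 5 with single arrays left out; median difference 0.06). The shares, 25% higher and 16.7% lower, were near the 20.1% and 13.9% of all genes. ftn-1, a ferritin that stores iron in the intestine, had 7.15, 8.17, 6.38 and 8.07 in hc1 worms, against 5.06, 4.16, 5.38 and 4.99 in hc24 worms (difference 2.55, adjusted p = 0.0015; 2.31, adjusted p = 0.0035 without hc1 replicate 2). mtl-1, a metallothionein, had 12.26, 12.55, 12.15 and 12.05 in hc1 worms, against 10.37, 10.51, 10.53 and 10.70 in hc24 worms (1.72 ± 0.11 (SE), adjusted p = 1.1e-05), and trxr-1, thioredoxin reductase, was higher by 0.51, adjusted p = 0.001. The hc1 arrays lay above hc24 and above the wild type means of 5.38 for ftn-1 and 11.10 for mtl-1. cdr-4, a cadmium-responsive gene, was slightly lower (-0.36, adjusted p = 0.023).

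Calls were not spread evenly over the chromosomes. Of 1567 X-linked probe sets with 1 gene, 561 were higher in hc1 (35.8%) and 17.0% lower, against 1641 of 9390 autosomal ones higher (17.5%) and 11.9% lower. Single autosomes ranged from 15.9% to 19.3% higher. The median difference was 0.17 on X and 0.07 on the autosomes, and without hc1 replicate 2 the shares higher were 32.5% on X and 15.8% on the autosomes. Split by mean level, the excess of higher calls was absent among the dimmest probe sets, at log2 4 to 6 (15.9% on X, 15.3% on autosomes), and widest at log2 8 to 10 (49.2% on X, 19.8% on autosomes). X-linked probe sets were also called lower more often at high levels, 31.4% against 6.78% on the autosomes at log2 10 to 12 and 26.4% against 12.7% at log2 12 and over. At log2 10 to 12 the median difference was 0.09 on both. The median level of X-linked minus that of autosomal probe sets was -1.62 to -1.57 in hc1 arrays, -1.77 to -1.72 in hc24 arrays and -1.61 to -1.47 in wild type arrays, so that every hc1 array lay above every hc24 array and hc24 stood below the other groups. In adults the germ line keeps most of the X chromosome nearly silent, as general background. The grouping by chromosome was made after the data were seen, and no test is given.

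**Figure D5:**
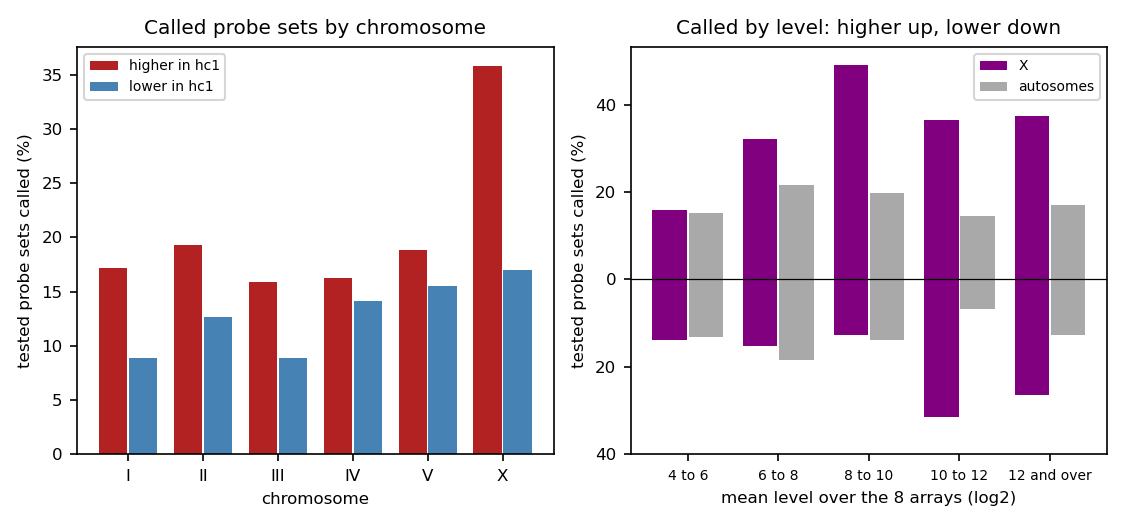
Left, percentage of tested probe sets of each chromosome called higher (red) or lower (blue) in hc1. Right, percentage called higher (upwards) and lower (downwards) on X (purple) and on the autosomes (grey) by mean level over the 8 arrays (log2); higher calls on X are most frequent at log2 8 to 10 (49.2%) and lower calls on X at log2 10 to 12 (31.4%).

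Calls that rest on hc1 replicate 2 were counted separately. With all 8 arrays, 495 probe sets were called that were not called without it, and 172 were called only without it, 114 higher and 58 lower. The latter included sperm genes (nspd-2, msd-4, nspd-4 and nspd-1), gipc-2 (-1.75, adjusted p = 0.00017 without the array, -1.13, adjusted p = 0.13 with it) and fmo-1, a flavin-containing monooxygenase gene (-1.49, adjusted p = 0.022 without, -1.08, adjusted p = 0.12 with). Those called higher only without it included tsp-1 (1.20), abu-13 (1.21), ech-9 (0.98), C52B9.8 (0.97), F43C9.1 (0.85) and T16G1.4 (0.81). The largest differences called only with it included lam-3, a laminin gene (0.90, adjusted p = 0.022), mab-5, a Hox gene (-0.74, adjusted p = 0.024), arrd-24 (-1.47, adjusted p = 0.027), C33D9.6 (1.16, adjusted p = 0.038), K02E10.4 (1.08, adjusted p = 0.032) and cest-15 (-1.04, adjusted p = 0.048). The array was also low in a few genes, such as bath-25, with 4.30, 1.86, 4.03 and 4.96 in hc1 worms, against 5.72, 4.89, 4.97 and 5.28 in hc24 worms (-1.43, adjusted p = 0.087), and K10D11.5, with 5.89, 4.56, 5.90 and 6.29 in hc1 worms, against 7.75, 6.94, 6.81 and 7.30 in hc24 worms (-1.54, adjusted p = 0.01; -1.17, adjusted p = 0.0049 without the array).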

How the data were processed

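One Affymetrix C. elegans array was hybridised per sample. The deposited values are log2 expression levels, 1 for each probe set of an array, and were made with GCRMA and Affymetrix Expression Console according to the submitters' processing notes. GCRMA subtracts a background modelled on probe sequence, then normalizes and combines the probes of a set. No version is given in the sources used here. No scanner file was read. GCRMA draws dim probe sets towards a common background value, so a group mean under log2 4 was held at 4 and the fold then printed is a lower bound. Arrays have no read depth; the number of arrays sets the precision.

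Groups followed the sample titles. Probe sets other than the 77 AFFX controls with log2 of at least 4 in at least 4 of the 8 mutant arrays were tested with limma 3.58.1 (R 4.3.3, lmFit and eBayes, 6 residual degrees of freedom before moderation), with no covariates. P-values were adjusted by Benjamini-Hochberg over all 11570. A probe set can pass the filter through the arrays of 1 allele alone, and it can then differ in that direction only. Such members add to list counts and medians, and their number was not counted. The fit was checked on simulated data. Of the tested probe sets, 11019 had 1 gene in the platform annotation (8564 genes in all), 342 several and 209 none, and 10965 were found in the RefSeq table for assembly WBcel235, used for chromosomes and gene order, and 0 symbols changed. Coordinates are left out, since no source used here names the build of the array annotation. Of 2085 genes with several probe sets, 3 (sca-1, sqt-3 and unc-52) were called in opposite directions.

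The groups, gene lists and tests were chosen with earlier results of these data known. In 45 lists, and 1 added after seeing the data (propionate breakdown), each gene entered with its brightest probe set, and probe sets with several genes counted once if all were members. Membership was corrected after the values were seen: nspa, nspb, nspc and nspe genes left the sperm list, lpd genes other than lpd-5 the respiratory chain list, ubl-5 the ribosomal list, kin-32, hsp-12.1 and pqn-22 the muscle list, nspb-1 the pharyngeal list, pod and mdt genes other than pod-2 and mdt-15 the lipid list, and math, vhp, drd, valv, scl and dod genes the infection list. List counts are descriptions without a test. Named genes have a probe set with 1 gene and were taken by rule: fer-1, the 15 most positive and 15 most negative differences without overlap, genes at background in one allele only, up to 3 called members each way per list with the smallest adjusted p that kept their call without hc1 replicate 2, the genes in which that array lay farthest from the other hc1 arrays, and the genes called only with or only without it. Genes outside the rule are marked in the text or are markers and gene-order neighbours. Values are means ± SD unless SE is written. The samples are called biological replicates by their titles. Alternatives were another filter, scaling, prior, array weights, a fit over all 12 arrays, a replicate block and leaving out each array.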

Additional observations from a re-analysis of the deposited data

Results flagged for a closer look

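Within the groups of 4 arrays, an array was set apart when its gap to the nearest other array passed Dixon's critical value for its share of the group's range. This held for 49 of 484 combinations of named probe set and allele, 16 of them through hc1 replicate 2. Chance sets apart about 1 in 20 groups, but part of the genes were named for the distance of hc1 replicate 2 from the other hc1 arrays, so neither number tests a pattern. Each gene is given with the log2 level of the array concerned against the range of the other 3 arrays of its allele.

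hc1 replicate 1 was high in srlf-32 (3.95 against 3.83 to 3.84). hc1 replicate 1 was low in sqt-3 (15.14 against 15.51 to 15.53). hc1 replicate 2 was high in C33D9.6 (5.94 against 4.64 to 4.70), aqp-7 (10.36 against 9.90 to 9.98), col-129 (8.49 against 3.93 to 4.41), col-142 (8.73 against 8.30 to 8.37), dod-3 (9.38 against 9.21 to 9.24), gipc-2 (5.10 against 2.55 to 2.77), mlc-1 (11.53 against 11.29 to 11.30), msd-4 (4.89 against 1.95 to 1.97), msp-36 (10.44 against 5.82 to 6.13), msp-40 (9.59 against 5.58 to 6.02), msp-50 (6.45 against 2.68 to 3.32), msp-74 (4.20 against 2.80 to 2.85), nspd-2 (7.26 against 3.30 to 3.51), nspd-4 (5.62 against 3.25 to 3.40) and tts-1 (13.59 against 12.38 to 12.45). hc1 replicate 2 was low in him-4 (5.18 against 5.69 to 5.77). hc1 replicate 5 was low in clec-190 (9.38 against 9.61 to 9.64) and gst-28 (7.36 against 7.69 to 7.75). hc1 replicate 6 was high in cnc-7 (5.49 against 5.17 to 5.19), cyp-34A8 (9.25 against 8.92 to 8.94), egl-3 (8.21 against 8.003 to 8.03), ifc-1 (3.06 against 2.69 to 2.70), pan-1 (10.20 against 9.97 to 10.0004) and phat-4 (4.80 against 4.62 to 4.65). hc1 replicate 6 was low in pqn-13 (4.03 against 4.66 to 4.70).

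hc24 replicate 1 was high in fbxb-47 (4.11 against 3.95 to 3.96). hc24 replicate 1 was low in abu-13 (3.59 against 4.77 to 4.79), cut-2 (8.06 against 8.41 to 8.42) and ugt-18 (5.04 against 5.27 to 5.28). hc24 replicate 2 was high in T22B7.7 (5.18 against 4.68 to 4.77), hch-1 (6.97 against 6.71 to 6.74) and pgp-4 (6.33 against 6.13 to 6.14). hc24 replicate 2 was low in cyp-33C9 (7.88 against 7.96 to 7.97) and wrt-1 (3.93 against 4.33 to 4.40). hc24 replicate 3 was high in nlp-33 (7.16 against 6.84 to 6.88). hc24 replicate 3 was low in chtb-1 (2.30 against 3.82 to 3.87), fbxb-17 (8.79 against 9.02 to 9.06) and his-71 (7.67 against 7.95 to 7.99). hc24 replicate 5 was high in clec-145 (6.002 against 5.41 to 5.48), gas-1 (12.04 against 11.87 to 11.89), meg-3 (9.66 against 9.50 to 9.52), ncx-3 (5.73 against 5.54 to 5.54), pqn-13 (4.25 against 3.41 to 3.45) and sgca-1 (6.69 against 6.12 to 6.20). hc24 replicate 5 was low in asp-4 (13.18 against 13.32 to 13.34), cut-3 (2.64 against 3.66 to 3.71) and sdn-1 (9.97 against 10.47 to 10.54).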

How the results depend on the processing

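Leaving out each of the 8 arrays in turn gave 2947 to 3548 called probe sets, 1702 to 2166 of them higher and 1245 to 1425 lower, 244 to 274 at least 2-fold higher and 387 to 422 at least 2-fold lower, and 28.9% to 33.7% of X-linked probe sets higher. Under the other settings (all 12 arrays in the fit, median centring, cyclic loess, no filter, a filter at log2 6, values under 4 set to 4, array weights and a variance trend) the number called lay between 3224 and 4683, and no count of all, higher or lower calls moved by over 1.5 times. A replicate block, with numbers 1, 2 and 5 occurring in both alleles, gave 2366 called probe sets, 1277 of them higher. Correlations of deviations from the group means were -0.018, 0.045 and 0.005 for same-numbered arrays and -0.249 to 0.237 for unlike-numbered ones. Whether same-numbered samples shared a preparation or batch was not tested. The block also removes degrees of freedom. With the block 23.2% of X-linked probe sets were higher, and with no filter 15.3%, against 9.07% and 7.98% on the autosomes. No gene named in the text reversed its sign as a called difference; of 229 called ones, 49 lost the call under at least 1 alternative, and 13 of the uncalled gained one. Of 43 list counts of 5 or more members called in 1 direction, 19 moved by over 1.5 times with the block, 4 with no filter and 6 when single arrays were left out; the major sperm proteins had 1 lower member with the block and 3 with no filter, against 27, while their median was -3.35 and -3.41. Cyclic loess turned the sign of the median, close to 0 in each, in the lists of cuticle-modifying enzymes, dystrophin complex and calcium genes, germ granule genes, gonadal sheath genes and oxidative stress genes. Probe sets near background limit what the arrays can show.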
